A study of Mus musculus with 7 samples.

Results

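The 32 genes followed here mark 2 cell types of the limb bud that do not belong to its epithelium: 18 mark blood vessels (endothelium) and 14 mark macrophages. They were taken by name alone, as every non-control spot whose gene name was 1 of the 32, with Adgre1 also accepted under its older name Emr1. All 32 genes were found, on 42 probes, among 36373 genes with a probe. The arrays held RNA from C57/Bl6 mouse embryos of embryonic day 11.5, with no allele, transgene or treatment named for either group. In 1 group, the apical ectodermal ridge (AER, the thickened epithelial rim of the limb bud) had been microdissected from the forelimb (3 arrays), and in the other, surface ectoderm had been taken from the posterior limb as the comparison tissue (4 arrays). Each array stands for a pool of 2 to 3 mice, so the p-values measure the spread between pools only if no arrays share a pool. Ectoderm arrays 2 and 4 may share an RNA, as described below, and the p-values count them as separate. In such bulk samples, fewer cells of a type and less RNA per cell cannot be told apart.

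Endothelial cells line every vessel and are recognised by the junction proteins that hold them together, by receptors for vascular growth factors and angiopoietins, and by transcription factors of the SOX F and ETS families. The limb bud of this age carries a plexus of small vessels in its mesenchyme, and a marginal vessel runs along its rim beneath the ridge. Embryonic macrophages reach the limb with the blood, depend on the growth factor receptor Csf1r, and take up dying cells, of which the ridge and the tissue next to it hold many.

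Factors of the ETS family, such as ERG and FLI1 in endothelium and PU.1 (encoded by Spi1) in macrophages, bind DNA around a GGAA core. RefSeq promoter windows (build GRCm38.p6) were matched for 20 of the 32 genes, and the 250 bases upstream of the start were searched on both strands for AGGAAG, 1 form of such a core. Of 27025 genes with a window, 29.2% held it, against 7 of 10 vessel genes and 7 of 10 macrophage genes with a window. GAGGAA, which overlaps AGGAAG by 5 bases, was in 23.1% of all windows, in 5 vessel windows and in 7 macrophage windows. These are matches of letters in a window, not measured binding sites. The upstream windows of 2 complement genes with the same highest and lowest AER array and the same upper pair of ectoderm arrays, as described further on, are shown with those of 2 vessel receptors, Tie1 and Robo4. Each is written 5′ to 3′ on the strand of its gene, with AGGAAG, or CTTCCT where it lies on the opposite strand, in capitals.
C1qb (chr4:136886201-136886450, minus strand): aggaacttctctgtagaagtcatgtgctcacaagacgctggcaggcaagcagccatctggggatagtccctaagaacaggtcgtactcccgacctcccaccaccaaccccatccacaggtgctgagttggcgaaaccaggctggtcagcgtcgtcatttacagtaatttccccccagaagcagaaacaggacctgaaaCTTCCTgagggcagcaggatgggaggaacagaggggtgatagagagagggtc
C1qc (chr4:136892915-136893164, minus strand): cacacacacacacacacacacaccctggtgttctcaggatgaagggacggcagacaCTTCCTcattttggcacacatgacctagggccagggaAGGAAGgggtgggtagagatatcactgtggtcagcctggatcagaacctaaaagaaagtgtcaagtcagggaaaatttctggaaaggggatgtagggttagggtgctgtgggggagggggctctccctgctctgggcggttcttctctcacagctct
Tie1 (chr4:118489850-118490099, minus strand): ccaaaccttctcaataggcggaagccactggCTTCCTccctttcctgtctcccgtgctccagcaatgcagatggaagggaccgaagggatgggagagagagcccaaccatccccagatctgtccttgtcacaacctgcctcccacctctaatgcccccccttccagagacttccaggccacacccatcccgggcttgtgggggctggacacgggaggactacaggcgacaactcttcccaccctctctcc
Robo4 (chr9:37401722-37401971, plus strand): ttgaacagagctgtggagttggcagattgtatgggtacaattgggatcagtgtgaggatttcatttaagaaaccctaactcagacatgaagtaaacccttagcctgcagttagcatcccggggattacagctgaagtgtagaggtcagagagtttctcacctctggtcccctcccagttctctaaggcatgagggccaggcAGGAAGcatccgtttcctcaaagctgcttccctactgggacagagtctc
C1qc held the motif in 2 places and each of the others in 1.

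The tissue labels were checked first. The 5 ridge genes (Fgf8, Fgf4, Sp8, Sp6 and Rspo2) were all higher in the AER, with a median log2 difference of 5.47, and the 6 epithelial genes, such as Epcam and Cdh1, were all higher, with a median of 1.74. Of 6 limb mesenchyme genes, 5 were lower in the AER (median -1.39), and all 3 tested muscle genes were lower (median -7.10). On ectoderm array 3 the ridge genes stood above the other ectoderm arrays, with a mean log2 level of 0.09 against -2.71 to -1.99. Ectoderm arrays 2 and 4 carry the same sample number in their files and may share an RNA. Results were therefore also computed with them averaged, which left 2268 genes called against 3266. That fit holds 1 array fewer, and leaving out ectoderm array 2 or 4 gave similar counts, 2247 and 2199. The 75th percentile of processed signal ran from 296.2 to 661.7 over the 7 arrays, and 48.7% to 55.2% of spots were well above background. Levels are therefore given as log2 of processed signal minus the 75th percentile of the array, called the scaled level here. A difference is AER minus ectoderm on that scale, so that a negative value is lower in the AER. Probes differ in how well they bind, so levels of different genes are not compared. Probe coordinates are those of the files, on build mm9.

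All 18 vessel genes were well above background on all 7 arrays, including the defining markers Pecam1, Cdh5, Kdr, Tie1 and Cldn5. Their levels were close in the AER and in the ectoderm: the median difference over the 18 was -0.03, and single genes ran from -0.66 to 0.48. With limma over 20826 genes tested and Benjamini-Hochberg adjustment, 1 vessel gene, Sox18, was lower in the AER and 0 were higher, and 17 were not called. Over all genes tested, 15.7% were called, 8.65% lower and 7.03% higher, and the median difference was -0.08. For 17 of the 18, the 95% interval of the difference lay within 2-fold either way, as it did for 67% of all genes tested; Kdr was the exception. Groups did not overlap for 1 vessel gene, Sox18, where 30.3% of all genes tested had groups that did not overlap. At an unadjusted p under 0.05, 2 vessel genes passed, Sox18 and Egfl7.

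Sox18 and Sox17 encode SOX F transcription factors that direct endothelial identity. Sox18 (mm9 chr2:181404789-181404848, minus strand) had processed signals of 315, 453 and 339 on AER arrays 1 to 3 and of 561, 611, 317 and 508 on ectoderm arrays 1 to 4. Its scaled levels were -0.11, -0.31 and -0.21 in the AER and 0.46, 0.46, 0.30 and 0.56 in the ectoderm. All 3 AER arrays were below all 4 ectoderm arrays once scaled, while the raw signal of ectoderm array 3, the dimmest array, lay among those of the AER. The means were -0.21 ± 0.10 (SD, n = 3) and 0.44 ± 0.11 (SD, n = 4), a 1.58-fold lower level in the AER (difference -0.66, 95% interval -0.97 to -0.34, limma adjusted p = 0.0136). The direction was the same without any single array, but without ectoderm array 4 the call was lost (difference -0.62, adjusted p = 0.0555). Within the upper row of the slide, which held AER array 1 and ectoderm arrays 1 to 3, the difference was -0.52 (adjusted p = 0.220), and within the lower row, with the other 3 arrays, it was -0.82 (adjusted p = 0.518), and neither passed. Its call was also lost with the replicate numbers as a block (-0.62, adjusted p = 0.111), with normexp background correction (-0.46, adjusted p = 0.0573) and without the filter on dim probes (-0.66, adjusted p = 0.0528). Sox17 was not called: its difference was -0.39 (95% interval -0.91 to 0.13) on the brighter probe and -0.44 on the other, and ectoderm array 1, at -2.39, lay among the AER arrays, at -2.11 to -2.59.

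Kdr and Flt1 encode receptors of vascular endothelial growth factors, Kdr the main signalling receptor and Flt1 a receptor that also traps the ligand. Kdr read by its brighter probe gave scaled levels of 3.37, 2.01 and 2.90 in the AER and 2.98, 2.82, 3.41 and 3.27 in the ectoderm. The low AER array 2 set the wide spread, and the groups overlapped. The difference was -0.36 with a 95% interval of -1.07 to 0.34, while the other Kdr probe, printed in 10 spots, gave 0.03. The 2 probes behaved unlike each other across arrays: processed signal of the brighter ran only from 2271 to 3520, the narrowest spread of the 18 genes at 1.55-fold, and that of the other from 397 to 1259. Flt1 reached 1.18, 1.46 and 0.51 in the AER and 0.48, 0.91, 0.61 and 1.05 in the ectoderm. The groups overlapped, the difference was 0.29 (95% interval -0.28 to 0.86), and its other probe was well above background on 0 arrays.

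Tek and Tie1 are the paired receptors of the angiopoietin system. Tek had scaled levels of -2.76, -2.004 and -1.56 in the AER and -2.45, -2.21, -2.74 and -2.46 in the ectoderm, so the AER arrays lay on both sides of the ectoderm arrays. Tie1 had -0.65, -0.27 and -1.18 against -0.81, -0.31, -1.23 and -0.28. Their differences were 0.36 (95% interval -0.27 to 0.98) and -0.04 (-0.71 to 0.63). Eng, a co-receptor for TGF-beta ligands, and Robo4, an endothelial guidance receptor, had differences of opposite sign, neither called, at 0.40 (-0.08 to 0.89) and -0.21 (-0.66 to 0.24).

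The 7 junction and surface proteins were not called. Cdh5, the cadherin of endothelial junctions, had processed signals of 536, 927 and 644 in the AER and 500, 1019, 342 and 737 in the ectoderm. Its scaled levels were 0.65, 0.72 and 0.71 in the AER, all between the lowest and the highest of the ectoderm arrays, at 0.29, 1.20, 0.41 and 1.09. The difference was -0.05 (95% interval -0.61 to 0.51, limma adjusted p = 0.902). Pecam1, the adhesion molecule known as CD31, reached -1.58, -1.18 and -1.42 in the AER and -1.83, -1.52, -1.73 and -1.47 in the ectoderm, again overlapping, with a difference of 0.25 (-0.13 to 0.62). Esam and Cldn5, both of the tight junction, differed by 0.01 (-0.46 to 0.48) and -0.21 (-0.61 to 0.18). Emcn, a sialomucin of capillaries and veins, differed by 0.39 (-0.08 to 0.87). Plvap, which forms the diaphragms of fenestrated endothelium, differed by -0.31 (-0.82 to 0.20) on the brighter probe and by -0.19 on the other. Cd34, a sialomucin that endothelium shares with blood progenitors and some mesenchyme, differed by -0.16 (-0.57 to 0.24), with 0.06 on its dimmer probe.

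Among secreted products and enzymes, Egfl7, an endothelial matrix protein, was the vessel gene with the most positive difference. Its processed signals were 9683, 16135 and 7530 in the AER and 6168, 7688, 5405 and 6389 in the ectoderm. Scaled, AER arrays 1 and 2, at 4.83 and 4.84, were above all ectoderm arrays (3.91, 4.11, 4.40 and 4.21), and AER array 3, at 4.26, was among them. The difference of 0.48 had a 95% interval of 0.03 to 0.94 and did not pass (limma adjusted p = 0.138). It passed without AER array 3 (0.68, adjusted p = 0.0446) and in the authors' processed values (0.65, adjusted p = 0.0394). Vwf, the clotting factor stored in endothelium, and Nos3, the endothelial nitric oxide synthase, differed by -0.03 (-0.59 to 0.53) and 0.01 (-0.60 to 0.62). For both, the 3 AER arrays lay close together inside the range of the ectoderm arrays, Vwf at 0.12, 0.15 and 0.16 within -0.37 to 0.61.

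**Figure D1:**
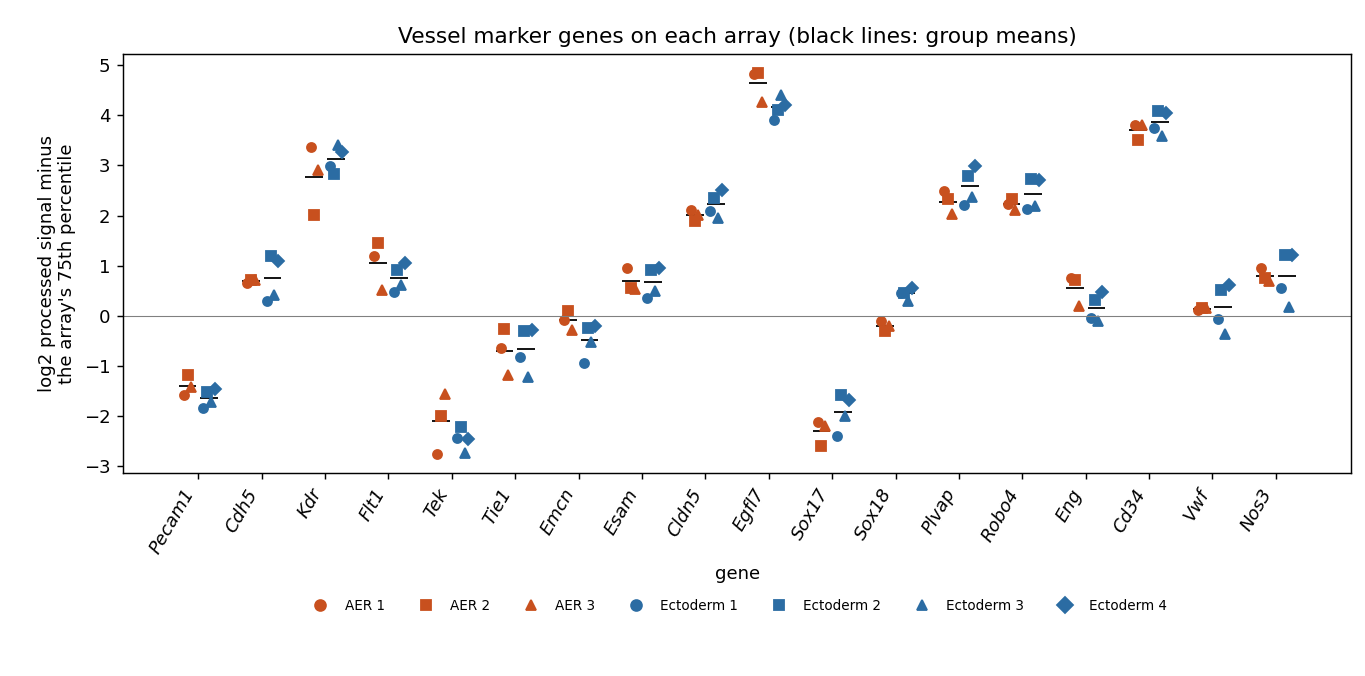
Scaled level (log2 processed signal minus the 75th percentile of the array, vertical axis) of the 18 vessel genes on each array, AER in orange and ectoderm in blue, 1 symbol per replicate, with group means as black lines. The groups overlap for each gene except Sox18, where the AER arrays lie from -0.31 to -0.11 and the ectoderm arrays from 0.30 to 0.56.

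Of the 14 macrophage genes, 10 were well above background on all 7 arrays, and each of the 14 was on at least 1. The defining markers Csf1r, Cx3cr1, C1qa and C1qb were among those 10 and so were detected in both tissues. The other 4 were dim: Ptprc passed on 3 AER arrays and 1 ectoderm array, Fcgr1 on 3 and 2, Lyz2 on 2 and 2, and Cd68 on 1 and 0, which left Cd68 out of the test. Of 13 tested, 0 were lower and 0 higher, where 15.7% of all genes tested were called, and 1 (Ptprc) had an unadjusted p under 0.05. The median difference was -0.03 over the 13 tested and 0.0004 over all 14, beside -0.08 over all genes tested and -0.11 over all genes with a probe. Single genes ran from -0.31 to 0.74, and 8 of 13 intervals lay within 2-fold either way, as did 67% over all genes tested. Only Ptprc, 1 of the 14, had groups that did not overlap, where 30.3% of all genes tested had such groups.

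Csf1r, the receptor that macrophages need to survive, had processed signals of 4257, 4417 and 2659 in the AER and 3758, 4843, 2618 and 3697 in the ectoderm. Its scaled levels were 3.64, 2.97 and 2.76 in the AER and 3.20, 3.45, 3.35 and 3.42 in the ectoderm. AER array 1 was the highest of the 7 and the other AER arrays were the lowest, so the groups overlapped (difference -0.23, 95% interval -0.73 to 0.27, limma adjusted p = 0.499). Its other 2 probes gave -0.12 and 0.13. Cx3cr1, the fractalkine receptor of resident macrophages, differed by -0.04 (-0.59 to 0.52), with 0.16 on a dimmer probe. Aif1, a cytoskeletal protein of macrophages also known as IBA1, differed by -0.19 (-0.78 to 0.41). Adgre1, which encodes the F4/80 antigen, differed by 0.03 (-0.61 to 0.66), with -0.04 on its other probe.

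Ptprc, the CD45 antigen of white blood cells, was the macrophage-list gene with the most positive difference. Its processed signals were low: 34.0, 52.4 and 31.1 in the AER and 15.3, 25.2, 14.9 and 23.8 in the ectoderm. The scaled levels were -3.32, -3.43 and -3.66 against -4.74, -4.14, -4.10 and -3.86, so all 3 AER arrays were above all 4 ectoderm arrays. The difference was 0.74 (95% interval 0.24 to 1.24) and did not pass (limma adjusted p = 0.0550). It passed with arrays scaled on the 75th percentile of the probes detected on each of the 7 (0.85, adjusted p = 0.0277) and with a filter that asks for every array of a group (0.74, adjusted p = 0.0487), and was 0.19 with normexp background correction. Because 1 of 4 ectoderm arrays was well above background, the ectoderm level is close to a bound, and the gene entered the test through the AER arrays.

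C1qa, C1qb and C1qc encode the 3 chains of complement C1q, which macrophages secrete. Their probes lie within 15891 bases of chromosome 4 (mm9). C1qa reached scaled levels of -0.16, -1.33 and -0.74 in the AER and -0.83, -0.06, -0.80 and -0.03 in the ectoderm. C1qb reached 0.06, -0.57 and -0.23 against -0.69, -0.01, -0.38 and 0.20. C1qc reached 0.27, -0.78 and -0.07 against -0.44, 0.50, -0.35 and 0.50. In all 3 genes AER array 1 was the highest and array 2 the lowest of the AER arrays, and ectoderm arrays 2 and 4 were above ectoderm arrays 1 and 3. The differences were -0.31 (95% interval -1.04 to 0.42), -0.03 (-0.59 to 0.54) and -0.25 (-1.003 to 0.51), with limma adjusted p of 0.535, 0.951 and 0.643. The intervals of C1qa and C1qc reached past 2-fold lower.

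Tyrobp and Fcer1g encode small signalling adaptors that pair with macrophage receptors, and Fcgr1 is the high-affinity receptor for immunoglobulin G. Tyrobp differed by -0.20 (-0.72 to 0.33) and Fcer1g by 0.22 (-0.32 to 0.76), both with overlapping groups. Fcgr1 had scaled levels of -2.21, -2.91 and -3.81 in the AER and -4.23, -2.80, -3.83 and -2.98 in the ectoderm, with a difference of 0.49 and the widest interval of the members, -0.53 to 1.51. Mrc1, the mannose receptor of tissue-resident macrophages, reached -0.23, -0.61 and -0.38 in the AER and -0.40, -0.43, -1.62 and -0.47 in the ectoderm. Ectoderm array 3 stood apart, and the difference of 0.32 (-0.37 to 1.02) was not called. Lyz2, a lysozyme, differed by 0.14 (-0.41 to 0.70). Cd68, a lysosomal glycoprotein, had processed signals of 15.4, 38.0 and 8.04 in the AER and 6.49, 20.4, 8.61 and 16.6 in the ectoderm, of which only the 38.0 of AER array 2 was well above background.

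**Figure D2:**
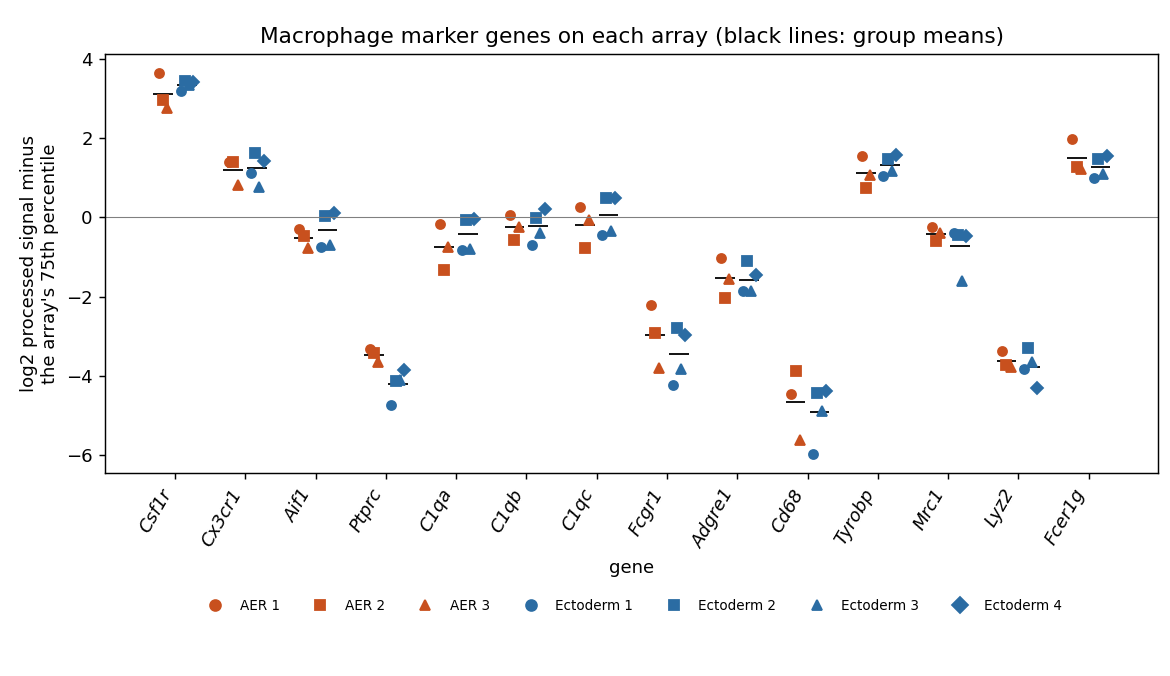
Scaled level (log2 processed signal minus the 75th percentile of the array) of the 14 macrophage genes on each array, AER in orange and ectoderm in blue, 1 symbol per replicate, with group means as black lines. AER array 1 (orange circle) is the highest AER array for 13 of the 14 genes, and the groups are apart only for Ptprc, at -3.66 to -3.32 against -4.74 to -3.86.

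**Figure D3:**
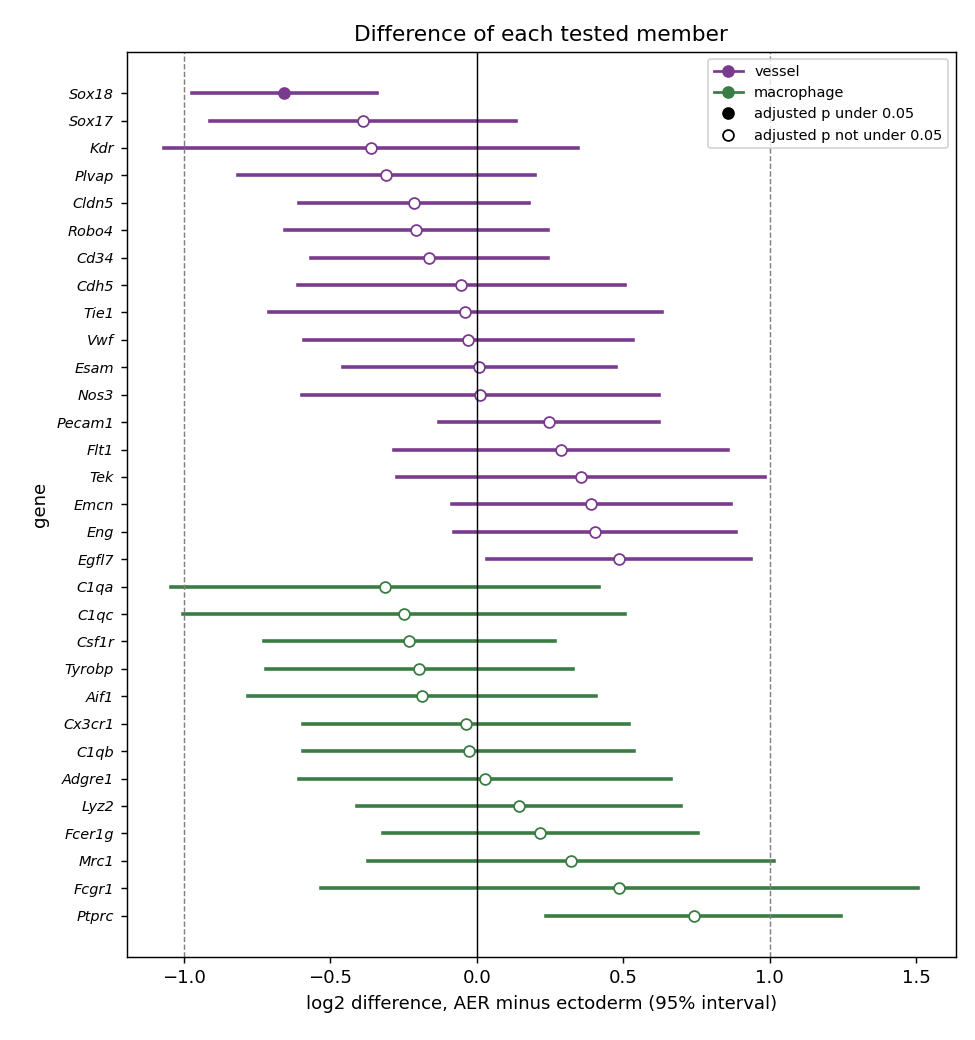
Difference of each of the 31 tested members (AER minus ectoderm, log2) with its 95% interval from limma, vessel genes in purple and macrophage genes in green, filled where the adjusted p is under 0.05 and with dashed lines at 2-fold. Sox18, at -0.66, is the only filled point, and 25 of the 31 intervals lie between the dashed lines.

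Array by array, the members of both lists moved together in the ectoderm group, and those of the macrophage list also in the AER group. Ectoderm arrays 2 and 4 were the highest pair of ectoderm arrays for 15 of 18 vessel genes (83.3%) and for 11 of 14 macrophage genes (78.6%), and for 21.3% of all genes tested. AER array 1 was the highest AER array for 13 of 14 macrophage genes (92.9%), for 8 of 18 vessel genes (44.4%) and for 42.6% of all genes tested. The vessel share was thus near that of all genes, and AER array 2 was the highest for 7 vessel genes and array 3 for 3. The mean scaled level of the vessel genes was 0.90, 0.83 and 0.73 on AER arrays 1 to 3 and 0.59, 1.03, 0.62 and 1.09 on ectoderm arrays 1 to 4. That of the macrophage genes was -0.44, -0.96 and -1.05, and -1.24, -0.55, -1.13 and -0.62. On these means the range over the 4 ectoderm arrays was wider than that over the 3 AER arrays, clearly for the vessel genes and slightly for the macrophage genes. The group ranges overlapped. On the summed level given below, the macrophage range was the wider in the AER, at 17.3 to 27.8 against 19.2 to 25.5. The members of a list share their arrays and their RNA, so these counts are descriptions of 7 arrays. Without scaling, ectoderm array 3, the dimmest by its 75th percentile, had the lowest processed signal for 28 of the 32 members, and the highest was on ectoderm array 2 for 18 and on AER array 2, the brightest array, for 13.

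The sign of the macrophage median differed between subsets of the arrays. Within the upper row of the slide (AER array 1, ectoderm arrays 1 to 3) the median difference over all 14 macrophage genes was 0.41, and within the lower row (AER arrays 2 and 3, ectoderm array 4) it was -0.37. Without AER array 1 the median over all arrays was -0.16. For the vessel genes the medians were 0.11 in the upper row and -0.43 in the lower row. Without ectoderm array 3, the median vessel difference was -0.20, and with ectoderm arrays 2 and 4 averaged it was 0.09, against 0.10 for the macrophage genes.

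These near-equal levels stood beside large shifts in the other tissues of the dissection. Levels were summed over genes on the linear scale, where 1 is the 75th percentile of an array. Such a sum rests mostly on the brightest probes of a list, such as Egfl7, Csf1r, the mesenchymal Col1a2 and the erythroid Hbb-y. It is therefore compared between arrays and not between lists. The vessel sum was 64.6 to 81.0 in the AER and 60.02 to 80.1 in the ectoderm, and the macrophage sum 17.3 to 27.8 and 19.2 to 25.5. The epithelial sum was 40.2 to 52.5 in the AER and 15.8 to 22.7 in the ectoderm, the mesenchymal sum 134 to 145 and 251 to 445, and the muscle sum 0.215 to 2.62 and 38.1 to 111. The erythroid genes, such as the embryonic globins Hbb-y and Hba-x, were between: 0 of 6 were called, with a median difference of -0.20 and sums of 1926 to 2041 and 2298 to 2902. The part of these shifts in the vessel and macrophage results was not tested. A scaling that held the 6 epithelial genes equal gave a median over all tested genes of -1.68 and called 19857 of 20826 genes. On it, all 18 vessel genes (median -1.63) and all 13 tested macrophage genes (median over all 14 of -1.60) were lower in the AER, close to that shift of all genes. With arrays scaled on the probes detected on each of the 7, 57.4% of called genes were higher in the AER (1934 higher, 1435 lower), against 44.8% here (1464 higher, 1802 lower).

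**Figure D4:**
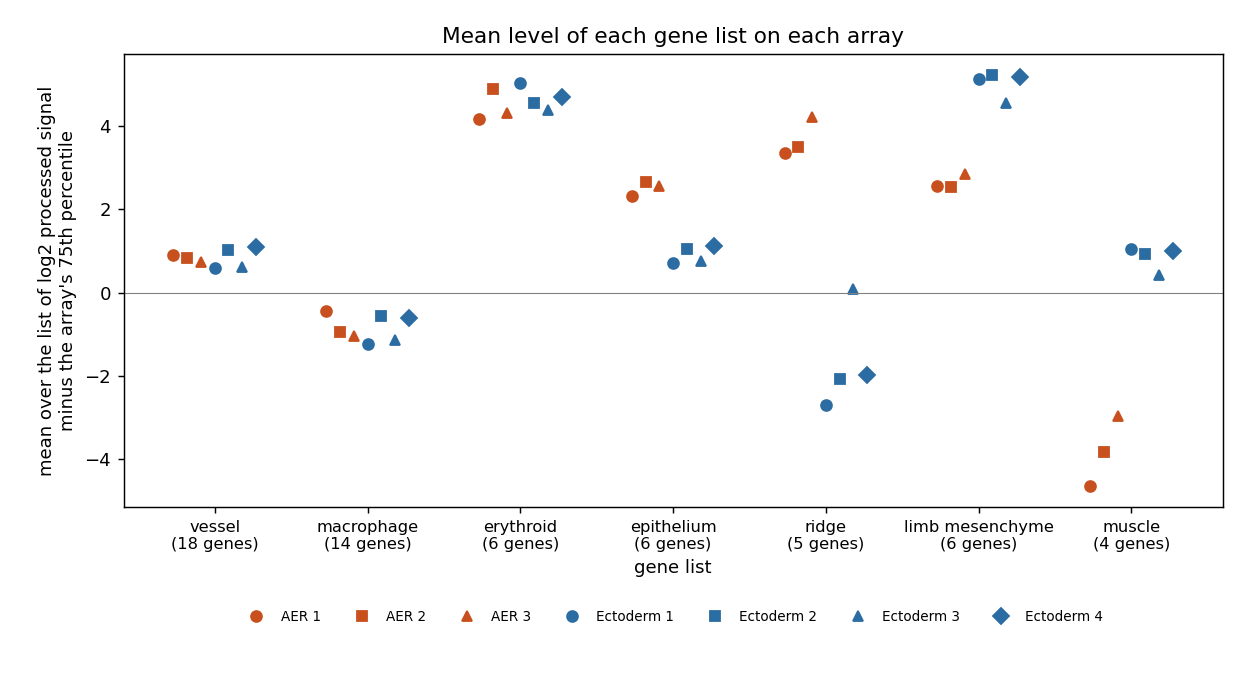
Mean scaled level (log2) of the vessel, macrophage, erythroid, epithelial, ridge, limb mesenchyme and muscle lists on each array, AER in orange and ectoderm in blue, 1 symbol per replicate. The vessel means lie from 0.73 to 0.90 in the AER and from 0.59 to 1.09 in the ectoderm, and the macrophage means overlap likewise, while the groups are apart for the epithelial, ridge, mesenchyme and muscle lists.

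Genes of the same cells and of their environment outside the 32 were read from further lists. Of 19 tested of 21 further endothelial genes, 3 were lower in the AER and 0 higher, with a median of -0.23. Over all genes tested, 8.65% were called lower and 7.03% higher, and the median was -0.08. Differences were negative for 16 of the 21 genes. Groups did not overlap for 8 of the 21, beside 30.3% of all genes tested. The genes called lower were Fli1, Hhex and Gimap6. Fli1, an ETS factor of endothelium that some mesenchyme also expresses, was at -1.53 (limma adjusted p = 0.00198). Hhex, a homeobox factor of early endothelium, was at -1.02 (adjusted p = 0.00155), and Gimap6, a small GTPase, at -0.89 (adjusted p = 0.0195). Fli1 was 1.18, 0.49 and 0.83 in the AER and 1.99, 2.49, 2.65 and 2.30 in the ectoderm. Icam2, an adhesion molecule, was not called at -0.75 (adjusted p = 0.0536), nor was Sox7 at -0.97 (adjusted p = 0.0537). Clec14a at -0.58 (adjusted p = 0.0646) and the ETS factor Erg at -1.06 (95% interval -1.85 to -0.27, adjusted p = 0.0741) were not called either. Gimap6 lost its call without any 1 of 4 arrays: AER array 1 (adjusted p = 0.05998), AER array 2 (0.0514), ectoderm array 2 (0.0596) or ectoderm array 4 (0.0563). It also lost it with ectoderm arrays 2 and 4 averaged (0.0554), with the replicate block (0.0730) and without the filter on dim probes (0.0567).

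Of 13 tested of 15 genes that tell arteries, veins and lymphatics apart, 4 were lower and 1 higher in the AER, with a median of -0.44. Over all genes tested, 8.65% were called lower and 7.03% higher. Gja4 and Gja5, connexins of arterial endothelium, were lower, at -2.24 (adjusted p = 0.000413) and -3.44 (adjusted p = 0.00352). Gja4 was at -2.10, -1.80 and -2.21 in the AER and at -0.24, 0.45, -0.05 and 0.66 in the ectoderm, and Gja5 was well above background on 1 of 3 AER arrays, so that its AER level is close to a bound. Gja5 entered the test through the ectoderm arrays, where it was the higher, and with normexp its difference was -1.66. Nr2f2, a nuclear receptor of veins that limb mesenchyme also expresses, was lower, at -1.50 (adjusted p = 0.000421). Prox1, the lymphatic homeobox factor, which muscle also expresses, was well above background on 0 AER arrays and 3 ectoderm arrays (adjusted p = 0.00165). It entered the test through the ectoderm arrays alone, so its fold is not given, and its difference with normexp was -0.75. Nrp1, a co-receptor for vascular endothelial growth factors that epithelium also makes, was at 1.03, higher in the AER (adjusted p = 0.0172). Its call was lost without AER array 1 (adjusted p = 0.0539) or AER array 2 (0.0576), with the slide row as a block (0.0530) and with array weights (0.0541), and on the epithelial scaling it was lower, at -0.57. The mural cell genes of the vessel wall were lower for 4 of 8 tested of 11, with a median of -0.65 over those tested: Acta2 at -3.87, Cspg4 at -1.09 and Pdgfrb at -0.86, with Des, on 0 AER arrays above background, at least 8.57-fold lower (adjusted p = 0.000268). Des, which also entered the test through the ectoderm arrays alone, was at -1.50 with normexp. Pdgfrb lost its call with the replicate block (-0.81, adjusted p = 0.0674). Acta2 and Des are also muscle genes, and Pdgfrb is also a mesenchymal gene, and both of those lists were lower in the AER; their part in these calls was not tested.

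Ligands that act on vessels changed in both directions. Of 11 tested of 12, 3 were lower and 3 higher, beside 8.65% and 7.03% over all genes tested, with a median of 0.25 over those tested in the list. Angpt2, the angiopoietin that loosens vessels, was higher by 2.37 (adjusted p = 7.09e-05), at -1.83, -1.36 and -1.42 in the AER against -4.06, -3.79, -4.10 and -3.69, where 1 of 4 ectoderm arrays was well above background. That ectoderm level is close to a bound, and the gene entered the test through the AER arrays, where it was the higher. The difference was 1.13 with normexp and 1.20 in the authors' processed values. Vegfd, a lymphatic growth factor, was higher by 3.07 (adjusted p = 0.00224), and Tgfb1 was higher by 1.49 (adjusted p = 0.000315), except on the epithelial scaling, where Tgfb1 was at -0.11. Pgf, a ligand of Flt1, was lower, at -2.24 (adjusted p = 0.000104), and at -1.48 in the authors' processed values. Vegfb and Pdgfb were lower, at -0.59 (adjusted p = 0.0253) and -0.65 (adjusted p = 0.0360). Vegfb lost its call without AER array 1 or ectoderm array 1, 3 or 4 (adjusted p up to 0.0854), and Pdgfb without AER array 2 or 3 or ectoderm array 2, 3 or 4 (adjusted p up to 0.110). Both lost it with the slide row or the replicate number as a block, without the filter on dim probes and with arrays scaled on the probes detected on each of the 7. Vegfb also lost it with normexp (-0.27, adjusted p = 0.268) and in the authors' processed values (-0.20, adjusted p = 0.317), and Pdgfb with ectoderm arrays 2 and 4 averaged (-0.58, adjusted p = 0.101). Vegfa, the main ligand of Kdr, was not called at 0.17 (95% interval -0.19 to 0.53).

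The further macrophage list held 15 tested genes of 21, of which 1 was lower and 1 higher, with a median of 0.04. That share of calls is close to the 15.7% over all genes tested. Spi1, the gene of PU.1, was well above background on 0 of the 7 arrays. Runx1, a transcription factor of blood formation that epithelium also expresses, was higher in the AER by 1.19 (adjusted p = 0.0275), except on the epithelial scaling, where it was at -0.41. Runx1 lost its call without AER array 1 or 3 or ectoderm array 1 or 3, with adjusted p up to 0.0811 in those fits, and with the slide row as a block (0.0693) or without the filter on dim probes (0.0670). Dab2, an endocytic adaptor of macrophages and mesenchyme, was lower, at -1.84 (adjusted p = 0.00510). Irf8, at 0.55 (limma adjusted p = 0.142), was not called, though its groups did not overlap. Stab1, at 0.38 (adjusted p = 0.210), was not called either, but passed in the authors' processed values (0.55, adjusted p = 0.0479). Coro1a at -0.25, Laptm5 at 0.03 and Itgb2 at 0.04, markers of macrophages and related blood cells, were not called. Differences were negative for 9 of the 21 genes. Coro1a, Laptm5 and Itgb2, like Spi1, Erg, Sox7, Clec14a, Vegfa, Nrp1, Vegfb and Pdgfb above, were chosen after their values were seen.

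Among ligands that act on macrophages, 6 of 7 were tested, 1 was lower and 2 were higher, with a median of 0.47 over those tested. The counts of this list and of the 2 lists that follow stand beside 8.65% lower and 7.03% higher over all genes tested. Cxcl12, a chemokine made by mesenchyme, was lower in the AER, at -4.57 (adjusted p = 0.000366), at -1.96, -1.23 and -1.66 against 1.90, 3.84, 2.36 and 3.72. Csf1, the ligand of Csf1r, was higher by 0.93 (adjusted p = 0.0175), at -0.35, 0.18 and -0.59 against -1.14, -1.09, -1.44 and -1.07, and was at -0.67 on the epithelial scaling. Its call was lost with the slide row as a block (0.87, adjusted p = 0.0568) and without the filter on dim probes (0.93, adjusted p = 0.0511). The other higher gene was Tgfb1, which both ligand lists hold. Cx3cl1, at 0.60 (limma adjusted p = 0.263), was not called. Of 10 tested of 11 genes of other blood cells, Prtn3, a neutrophil protease, was lower, at -0.95 (adjusted p = 0.0130), and 0 were higher. Prtn3 was at -0.63 in the authors' processed values and lost its call with the replicate block (-0.90, adjusted p = 0.0568). Cpa3 at -1.63 (limma adjusted p = 0.188), Kit at -0.18 (0.427) and Elane at 0.20 (0.577) were not called. Cpa3 passed without AER array 1 (-2.51, adjusted p = 0.0376) and with the replicate block (-1.48, adjusted p = 0.0426). Its difference ran from -3.23 to 0.28 over the alternatives. Of 7 other complement genes, 2 were tested and 0 called: Cfp at 0.69 (limma adjusted p = 0.371) and C3 at -0.07 (adjusted p = 0.770).

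**Figure D5:**
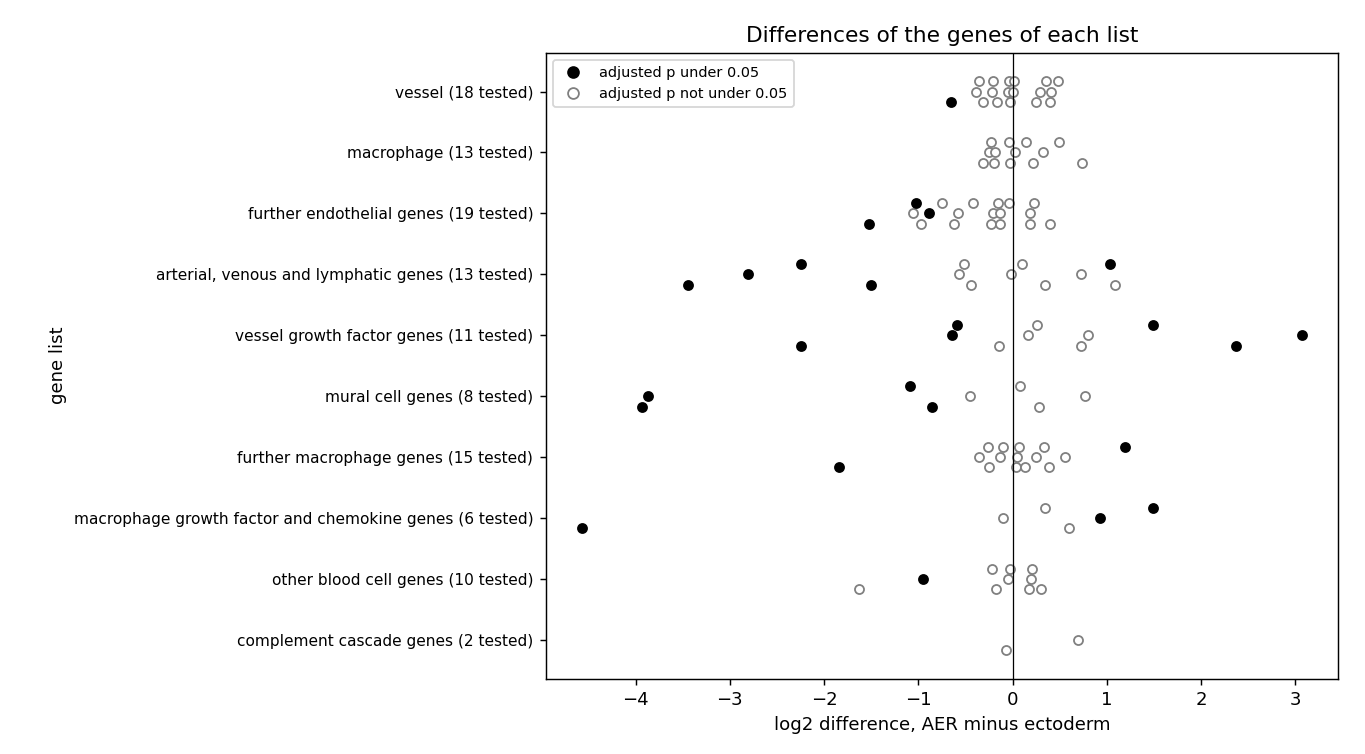
Log2 difference (AER minus ectoderm) of each tested gene in the vessel and macrophage lists and in 8 further lists, filled where the limma adjusted p is under 0.05. The vessel and macrophage points lie between -0.66 and 0.74, while the other lists run from -4.57 (Cxcl12) to 3.07 (Vegfd).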

How the data were processed

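Total RNA was labelled with Cy3 and hybridised to 1-colour Agilent arrays on 1 slide with 1 scan time, per the file headers. The processed signal in the deposited scanner files is an intensity, background-subtracted and detrended per array by Agilent Feature Extraction 10.7.3.1, per the file headers. Other columns of the deposited files are flags for spots well above background, saturated or outlying. The authors also deposited a matrix of log2 values, already processed; the submitters' processing notes name limma without a version. Applied to the scanner files, normexp with an offset of 50 and quantile normalization gave that matrix to within 0.000108.

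From the deposited files, outlying spots were left out, spots of a probe averaged, and the 75th percentile of each array subtracted from log2 of the intensity. Probes well above background on at least 3 of 7 arrays were kept (28280), and each gene was read by its brightest probe. A further 45 probe values were missing after the outlier filter, none of a member. The 2 groups were compared with limma 3.58.1 (R 4.3.3, data.table package version 1.17.8; two-sided, group as the single term, 5 residual degrees of freedom and a prior of 3.50), with Benjamini-Hochberg adjustment over 20826 genes at 0.05. On simulated data, 36% of 2-fold changes were called. Where a gene was above background on 0 arrays of a group, its fold was taken against the dimmest signal called well above background. Signals not called well above background can lie above that one, so the fold is not a strict minimum. Python 3.11.15, pandas 2.3.3, numpy 2.4.6 and matplotlib 3.10.9 were used for reading and plots.

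All 32 members are accounted for, and from each further list up to 4 genes with the smallest p are named, with any other called gene. The members and lists were chosen with earlier results of these data known. Same-numbered AER and ectoderm arrays deviated from their group means with correlations of -0.03, 0.19 and 0.13 for numbers 1 to 3, so the numbers were not taken as pairs. Alternatives covered background correction, scaling, filters, probe choice, slide row, blocks and leaving out each array. The exon under a probe was not looked up, and 2 genes were left out of the further lists and are not reported here.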

Additional observations from a re-analysis of the deposited data

Results flagged for a closer look

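Among the 32 members, the 4 ectoderm arrays of 1 gene held an array far from the others. Mrc1 had a scaled level of -1.62 on ectoderm array 3, where the nearest ectoderm array was at -0.47, and the gap was 0.948 of the whole range of the 4 arrays, above Dixon's 95% critical value. Each of the 32 genes was looked at in this way, and chance alone flags about 5% of such groups.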

How the results depend on the processing

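The count of vessel genes lower in the AER, 1 (Sox18), was 0 with normexp and the 75th percentile, without the filter on dim probes, within slide row 1, within slide row 2 and with the replicate block, and 0 to 1 leaving out an array. That of vessel genes higher, 0, was 1 (Egfl7) with normexp and quantile normalization and in the authors' processed values, and 0 to 1 leaving out an array. That of macrophage genes higher, 0, was 1 (Ptprc) with arrays scaled on the probes detected on each of the 7 and with a filter asking for every array of a group.

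Under the other scalings the median difference was 0.03 to 0.08 for the vessel genes and -0.04 to 0.11 for the macrophage genes. Centring on 6 epithelial genes gave 19857 called genes, 18 vessel genes lower (median -1.63) and 13 macrophage genes lower (median over all 14 of -1.60). It turned the sign of Egfl7 to -1.12, Emcn to -1.21, Eng to -1.20, Esam to -1.59, Flt1 to -1.31, Nos3 to -1.59, Pecam1 to -1.35, Tek to -1.24, Adgre1 to -1.57, Fcer1g to -1.38, Fcgr1 to -1.11, Lyz2 to -1.46, Mrc1 to -1.28 and Ptprc to -0.86. Beyond the members it turned Nrp1 to -0.57, Tgfb1 to -0.11, Runx1 to -0.41, Stab1 to -1.22, Irf8 to -1.05, Csf1 to -0.67, Cx3cl1 to -1.005 and Elane to -1.40. By construction, that scaling lowers every gene in the AER by the same amount.

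Within slide row 1, 653 genes were called and the macrophage median was 0.41. Within slide row 2, 1390 were called, with medians of -0.43 (vessel) and -0.37 (macrophage). Of the called genes of the further lists, only Gja4, Pgf and Angpt2 kept their call in both rows. Rows hold 4 and 3 arrays, and a lone array was assumed to vary like the other group. With the replicate block, a paired fit, 2444 genes were called against 3266; the numbers were not taken as pairs. Of 681 member differences under the alternatives, 100 changed sign with no call in either fit, so those have no set direction. With 7 arrays, the 36% of 2-fold changes called in simulation limits what the counts of 0 can show, and dim genes such as Cd68 and Lyz2 are near background.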
